A study of Homo sapiens with 5 samples.

Results

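The PAX3-FOXO1 fusion is the defining lesion of most alveolar rhabdomyosarcomas (ARMS), and 10 genes were followed here: its 2 partner genes, PAX3 and FOXO1, and 8 genes known as its direct targets or as markers of fusion-positive tumours, namely FGFR4, ALK, TFAP2B, CDH3, PIPOX, NOS1, SOX8 and OLIG2. They were taken by gene symbol from the deposited expression table, and all 10 were among its 13822 rows. The cells were RH4, an ARMS line used as a model of the disease, so that every library came from this single line. In 3 libraries the cells had received a control siRNA (si-SCR), and in 2 libraries an siRNA against the back-splice junction of circVAMP3 (si-circVAMP3), a circular RNA made from VAMP3 exons. In both conditions the siRNA was given at 30 nM, the medium was changed after 24 h and the cells were collected 24 h later, and poly-A+ RNA was sequenced. The values are FPKM, read counts scaled to the exon length of the gene and to the size of the library. The study describes the replicates as biological replicates and asked which transcripts change when the circle is lost.

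A translocation between chromosomes 2 and 13 joins the start of PAX3, which encodes the paired and homeodomain DNA-binding parts of a developmental transcription factor, to the end of FOXO1, which encodes the transactivation part of a forkhead factor restrained by AKT. The product is transcribed from the PAX3 promoter, binds mostly at distal enhancers and keeps the cells in a proliferating, muscle precursor-like state. In the table, reads of the fusion and of the intact alleles would fall in the same rows. PAX3 would gather the fusion's first part and intact PAX3, and FOXO1 its last part and intact FOXO1. The fusion itself therefore has no row of its own, and its share of either row was not measured.

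The siRNA is shown because it sets the contrast on which every value rests. Its first 19 bases matched VAMP3 across the joined exons, with 8 bases from the end of exon 4 (lower case; GRCh38 chr1:7778162-7778169, plus strand) followed by 11 bases from the start of exon 3 (capitals; chr1:7777160-7777170), the last pair being an overhang. The circle of these exons is 211 bases long.
si-circVAMP3: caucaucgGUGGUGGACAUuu

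The gene-level table of poly-A+ RNA did not measure the circle. Its VAMP3 row stands for the linear transcript, so it is no check of the loss of the circle. By qRT-PCR, the study reported a strong loss of circVAMP3 and a smaller, significant loss of linear VAMP3 after this siRNA. The part of the linear loss in the differences below was not tested. VAMP3 was at 36.4, 35.4 and 37.4 FPKM in the si-SCR libraries and at 29.4 and 30.2 FPKM in the si-circVAMP3 libraries. The groups did not overlap, and the log2 difference, si-circVAMP3 minus si-SCR, was -0.29 ± 0.04 (SE; limma on log2(FPKM + 0.5), adjusted p = 0.005). Without si-circVAMP3 replicate 1 it was -0.27, with an adjusted p of 0.0518.

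The cells carried markers of the skeletal muscle lineage, with MYOD1 at a mean of 102 ± 15.7 FPKM (SD, n = 3) and desmin (DES) at 277 ± 24.3 FPKM under si-SCR. Of 14 such markers 12 had a row, but MYH3 and MYH8 were low, at means of 0.706 and 0.278 FPKM under si-SCR. None of 5 epithelial and none of 5 leukocyte markers had a row, and of 4 endothelial markers only PECAM1 had one, at 0.0777 to 0.153 FPKM. Of 6 fibroblast markers 4 were listed, with a summed level of 32.2 to 34.9 FPKM under si-SCR and of 28.2 to 30.7 under si-circVAMP3, most of it COL3A1. PDGFRB alone passed, at 0.226, 0.258 and 0.225 FPKM under si-SCR and 0.355 and 0.370 FPKM under si-circVAMP3 (adjusted p = 0.0491), beside 12.9% of all rows that passed upwards. That call was lost whichever single library was left out (adjusted p 0.0892 to 0.193) and with a pseudocount of 1 or a robust prior (0.0524 and 0.0508). COL3A1, DCN and COL1A1 had differences of -0.18, -0.14 and -0.01. COL3A1 was lower in both si-circVAMP3 libraries than in all controls but did not pass (adjusted p = 0.0531, lowest over the alternatives 0.0277). With single libraries left out DCN ranged from -0.26 to -0.02. Reads recovered from the FPKM values numbered 18599261 in si-circVAMP3 replicate 1, the shallowest library, and up to 28776712 in si-circVAMP3 replicate 2.

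Upon circVAMP3 knock-down, 1 of the 10 genes, FOXO1, passed the test, and it fell. Across the 13681 rows tested, 27.5% passed at an adjusted p under 0.05, 14.6% lower and 12.9% higher. Of the other 9 genes, 8 had a log2 difference between -0.26 and -0.06 that did not pass, and ALK had one of 0.07. The median over the 10 was -0.20, beside 0.00 over all rows tested, and 49.6% of all rows had a difference below 0. This median moved to -0.13 without si-SCR replicate 3, without si-circVAMP3 replicate 2 or with the replicate number as a block. In 6 of the 10 genes (PAX3, FOXO1, TFAP2B, CDH3, NOS1 and OLIG2) both si-circVAMP3 libraries were below all si-SCR libraries, as in 28.6% of all rows, and in none of the 10 were both above, as in 28% of all rows. None of the 10 also passed the study's fold cutoff of 0.58 on the log2 scale in limma, nor with voom weights on recovered reads, where FOXO1 was again the only one to pass the test (16% of rows passed downwards). Of all rows, 2.46% passed both cutoffs downwards and 0.972% upwards in limma. At an unadjusted p under 0.05 there were 3 of the 10 (FOXO1, FGFR4 and OLIG2), against 40.5% of all rows.

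**Figure D1:**
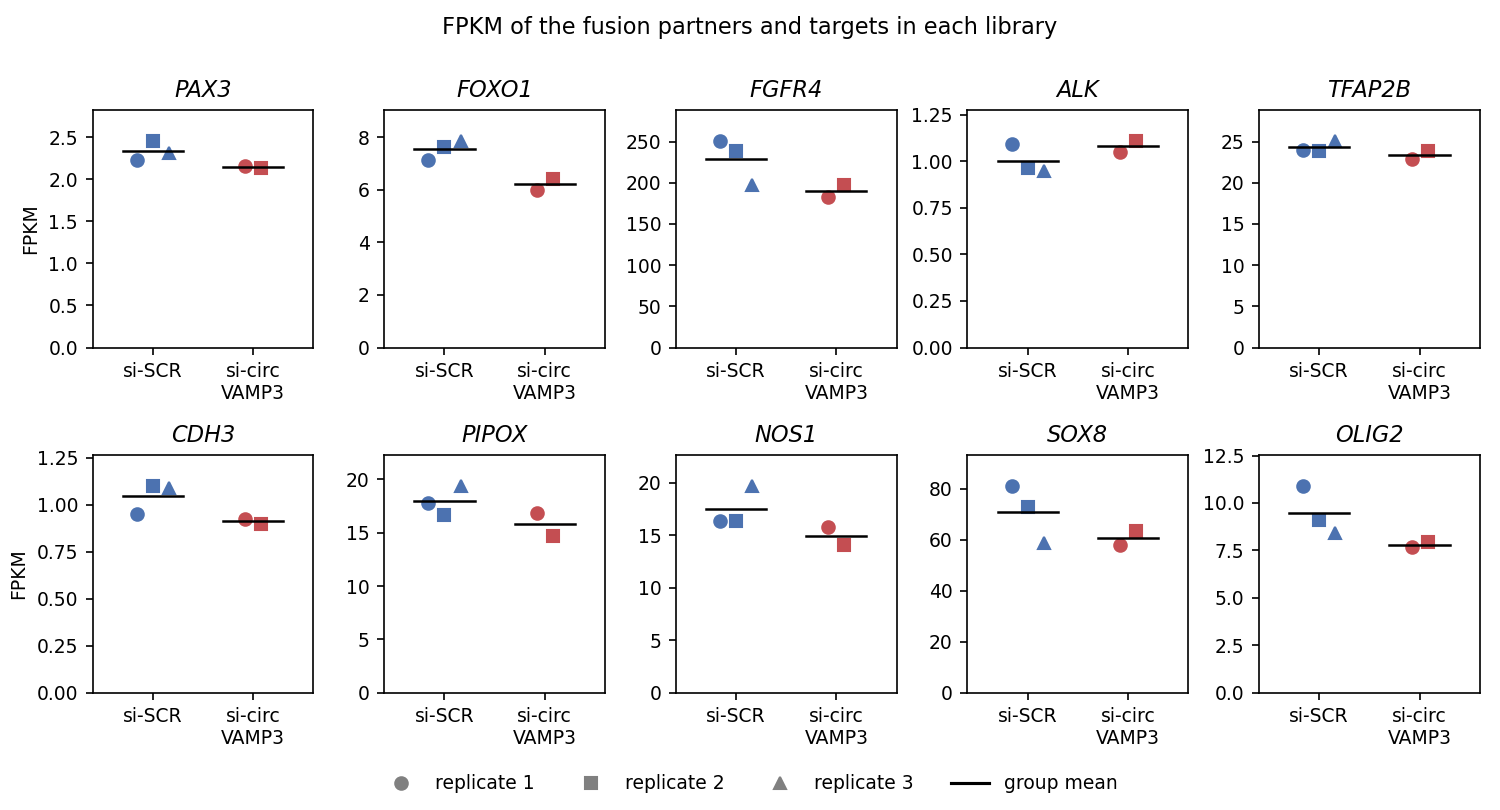
FPKM (vertical axes, each from 0) of the 10 genes in the 3 si-SCR libraries (blue) and the 2 si-circVAMP3 libraries (red); symbols give the replicate and the lines the group means. FOXO1 lay at 7.12 to 7.87 under si-SCR and at 6.01 and 6.41 under si-circVAMP3, whereas FGFR4, SOX8, PIPOX and ALK overlapped between the groups.

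The genes spanned more than 2 orders of magnitude per length of exon. Under si-SCR, FGFR4 was the most abundant, with a mean of 229 ± 28.7 FPKM (SD, n = 3). It was followed by SOX8 (70.9 ± 11.4) and TFAP2B (24.3 ± 0.638). PIPOX (18.0 ± 1.36) and NOS1 (17.5 ± 1.89) could not be ordered, since their ranges overlapped. OLIG2 (9.47 ± 1.28), FOXO1 (7.55 ± 0.382) and PAX3 (2.33 ± 0.115) came next without overlap between neighbours. CDH3 (1.05 ± 0.0833) and ALK (1.00 ± 0.0779) were the lowest and overlapped, above 18.8% and 19.4% of all rows by their means over the 5 libraries.

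PAX3 (GRCh38 chr2:222199887-222298998, minus strand) was measured at 2.23, 2.46 and 2.31 FPKM under si-SCR, from 473, 488 and 457 recovered reads. Under si-circVAMP3 it was at 2.16 and 2.13 FPKM, from 318 and 486 reads. Both si-circVAMP3 values were just below the lowest control, and the log2 difference of -0.10 ± 0.07 (SE) did not pass the test (adjusted p = 0.35). Its unadjusted 95% interval, -0.27 to 0.07, held changes of either sign. On recovered reads with voom weights, without the added 0.5 FPKM, the difference was -0.12 ± 0.08, and counting error alone gave an SE of 0.064 on the log2 scale of the reads.

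FOXO1 (chr13:40555667-40666641, minus strand) was measured at 7.12, 7.65 and 7.87 FPKM under si-SCR and at 6.01 and 6.41 FPKM under si-circVAMP3. The groups were apart, by a mean 17.7% lower under si-circVAMP3. The log2 difference was -0.26 ± 0.06 (SE; interval -0.42 to -0.11), with an adjusted p of 0.0268 by limma. With each library left out in turn the difference was -0.30 to -0.22. The call was lost without si-SCR replicate 2 (adjusted p = 0.0892) and with either si-circVAMP3 library left out. In each of these settings calls were fewer among all rows as well. Over all alternatives run, its adjusted p ranged from 0.0156 to 0.165. FOXO1 rested on 1132, 1139 and 1169 reads in the controls and on 664 and 1099 in the knock-down.

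Because a fusion transcript would add to both partner rows, their ratio was also followed. FOXO1 over PAX3, in FPKM, was 3.19, 3.11 and 3.41 under si-SCR and 2.78 and 3.01 under si-circVAMP3. The knock-down ratios lay below all control ratios, at a log2 difference of -0.16 (two-sided exact permutation test, p = 0.2), and 0.2 is the smallest p that 3 against 2 libraries can give. The exon lengths behind the FPKM, 7939 bases for PAX3 and 5957 for FOXO1, include bases that the fusion transcript lacks, so the ratio is no count of molecules.

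The start regions of both partners are shown because the fusion transcript begins at the PAX3 promoter and intact FOXO1 at its own. The windows are 300 bases of RefSeq sequence (GRCh38.p14, minus strand), from 250 bases before to 50 after the start, at chr2:222298949-222299248 and chr13:40666592-40666891. Capitals mark CCAAT boxes, the binding motif of the general factor NF-Y, on either strand.
PAX3: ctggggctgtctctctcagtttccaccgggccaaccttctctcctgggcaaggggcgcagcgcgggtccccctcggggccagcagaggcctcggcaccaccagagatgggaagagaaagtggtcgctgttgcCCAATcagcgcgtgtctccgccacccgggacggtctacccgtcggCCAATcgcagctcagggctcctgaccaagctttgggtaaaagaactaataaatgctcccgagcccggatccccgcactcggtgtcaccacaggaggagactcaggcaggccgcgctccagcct
FOXO1: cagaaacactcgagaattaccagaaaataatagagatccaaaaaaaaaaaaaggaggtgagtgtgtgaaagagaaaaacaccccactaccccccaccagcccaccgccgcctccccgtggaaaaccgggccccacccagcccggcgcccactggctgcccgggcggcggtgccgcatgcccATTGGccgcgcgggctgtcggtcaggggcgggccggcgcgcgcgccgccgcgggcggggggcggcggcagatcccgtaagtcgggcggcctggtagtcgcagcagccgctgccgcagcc

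PAX3 held 2 CCAAT boxes and FOXO1 held 1, a motif (CCAAT, searched on both strands, chosen after the windows had been read) present in 34.6% of all 35116 promoter windows of the same length. Their G and C content was 64.7% and 68.0%, beside a median of 58.7% over all windows. Neither window held the myogenic E-box CAGCTG (17.9% of all windows), the MYC E-box CACGTG (7.26%), the FOXO motif GTAAACA (3.42%), the paired-domain motif GTCACGC (2.52%) or a homeodomain dimer motif, TAAT and ATTA with 3 bases between them (0.365%), each searched on both strands. Windows were found for 7 of the 10 genes, all but CDH3, SOX8 and OLIG2. Among these 7, CAGCTG was in ALK, CACGTG in ALK and FGFR4, GTCACGC in NOS1 and CCAAT in ALK, FOXO1, PAX3 and TFAP2B.

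The receptor tyrosine kinases were FGFR4, a fibroblast growth factor receptor driven by the fusion through an enhancer, and ALK. FGFR4 (chr5:177086905-177098144, plus strand) was at 251, 239 and 197 FPKM under si-SCR and at 183 and 197 FPKM under si-circVAMP3. Control replicate 3 lay within the knock-down range, so the groups overlapped, and the log2 difference of -0.26 ± 0.10 (SE; interval -0.51 to -0.02) did not pass the test (adjusted p = 0.103). Without si-SCR replicate 3 the difference was -0.37 with an adjusted p of 0.00432, whereas without si-SCR replicate 1 it was -0.19. With 16308 to 32208 reads per library, counting error gave an SE of 0.009 on the log2 scale of the reads.

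ALK (chr2:29192774-29921586, minus strand) was at 1.09, 0.965 and 0.950 FPKM under si-SCR and at 1.05 and 1.11 FPKM under si-circVAMP3. It was the only gene of the 10 with a higher mean in the knock-down, the groups overlapped, and the log2 difference of 0.07 ± 0.08 did not pass (adjusted p = 0.535). It was read from 144 to 235 reads per library, and the interval of the difference was -0.12 to 0.26. With single libraries left out it ranged from 0.05 to 0.12.

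Among the transcription factors, TFAP2B, the AP-2 factor whose protein is stained for to recognise fusion-positive tumours, had the smallest SE of the 10. It (chr6:50818723-50847619, plus strand) was at 24.0, 23.9 and 25.1 FPKM under si-SCR and at 22.9 and 23.8 FPKM under si-circVAMP3. The knock-down values were slightly below the controls, at a log2 difference of -0.06 ± 0.04 (adjusted p = 0.387) and an interval of -0.16 to 0.05. With single libraries left out it ranged from -0.08 to -0.03.

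SOX8, a SOX-family factor of the core regulatory circuit of these tumours (chr16:981770-986979, plus strand), was at 81.1, 72.8 and 58.6 FPKM under si-SCR and at 58.0 and 63.4 FPKM under si-circVAMP3. Control replicate 3 fell between the knock-down libraries, as for FGFR4. The log2 difference was -0.21 ± 0.13 (adjusted p = 0.261), and without si-SCR replicate 3 it was -0.34 (adjusted p = 0.0128). Without si-SCR replicate 1, the highest library, it was -0.11.

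OLIG2, a neural basic helix-loop-helix factor expressed aberrantly in fusion-positive tumours (chr21:33025935-33029196, plus strand), was at 10.9, 9.08 and 8.43 FPKM under si-SCR and at 7.67 and 7.94 FPKM under si-circVAMP3. All controls were above both knock-down values. The log2 difference of -0.26 ± 0.10 equalled that of FOXO1 in size, but the controls were spread 1.29-fold from lowest to highest and the adjusted p was 0.111. Without si-SCR replicate 3 it was -0.33 (adjusted p = 0.0334), and without replicate 1 it was -0.15.

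**Figure D2:**
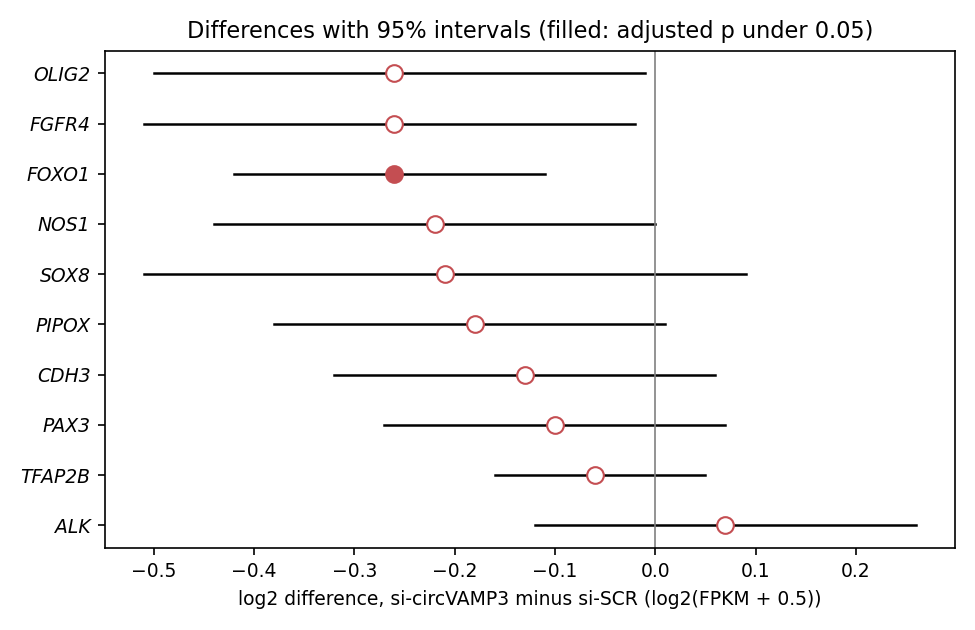
Log2 difference (horizontal axis, si-circVAMP3 minus si-SCR, on log2(FPKM + 0.5)) of the 10 genes with unadjusted 95% intervals from limma; filled points passed an adjusted p of 0.05. FOXO1, at -0.26, is the only filled point, and ALK, at 0.07, the only point above 0.

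The remaining targets encode a cadherin and 2 enzymes. CDH3, the P-cadherin of cell junctions (chr16:68636189-68727468, plus strand), was at 0.950, 1.10 and 1.09 FPKM under si-SCR and at 0.924 and 0.897 FPKM under si-circVAMP3. The knock-down values were below all controls, and the log2 difference of -0.13 ± 0.08 did not pass (adjusted p = 0.266). On recovered reads, 104 to 167 per library, the difference with voom weights was -0.20 ± 0.14, and counting error alone gave an SE of 0.111 on the log2 scale of the reads.

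NOS1, the neuronal nitric oxide synthase (chr12:117208142-117452170, minus strand), was at 16.4, 16.4 and 19.7 FPKM under si-SCR and at 15.8 and 14.1 FPKM under si-circVAMP3. PIPOX, a peroxisomal oxidase of pipecolic acid and sarcosine (chr17:28950513-29057216, plus strand), was at 17.8, 16.7 and 19.4 FPKM under si-SCR and at 16.9 and 14.7 FPKM under si-circVAMP3. Both enzymes were highest in si-SCR replicate 3 and lowest in si-circVAMP3 replicate 2, and the groups overlapped for PIPOX only. The log2 differences were -0.22 ± 0.09 for NOS1 (adjusted p = 0.125) and -0.18 ± 0.08 for PIPOX (adjusted p = 0.145). They ranged from -0.30 (without si-circVAMP3 replicate 1) to -0.13 (without si-SCR replicate 3) for NOS1, and from -0.28 (without si-circVAMP3 replicate 1) to -0.08 (without si-circVAMP3 replicate 2) for PIPOX, with no call in either direction.

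For several of these genes si-SCR replicate 3 stood apart from the other controls. Relative to the mean of si-SCR replicates 1 and 2, replicate 3 was lower by log2 differences of -0.39 for SOX8, -0.32 for FGFR4 and -0.23 for OLIG2, and higher by 0.26 for NOS1 and 0.16 for PIPOX. For PAX3, TFAP2B, CDH3, ALK and FOXO1 this distance was between -0.07 and 0.09. Leaving out si-SCR replicate 3 brought the number of genes passing the test to 4 (FOXO1, FGFR4, SOX8 and OLIG2, all lower), where 15% of all rows passed downwards. Leaving out si-SCR replicate 2 or either si-circVAMP3 library brought it to 0, where 8.93%, 5.82% (without replicate 1) and 5.46% (without replicate 2) of rows passed downwards.

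**Figure D3:**
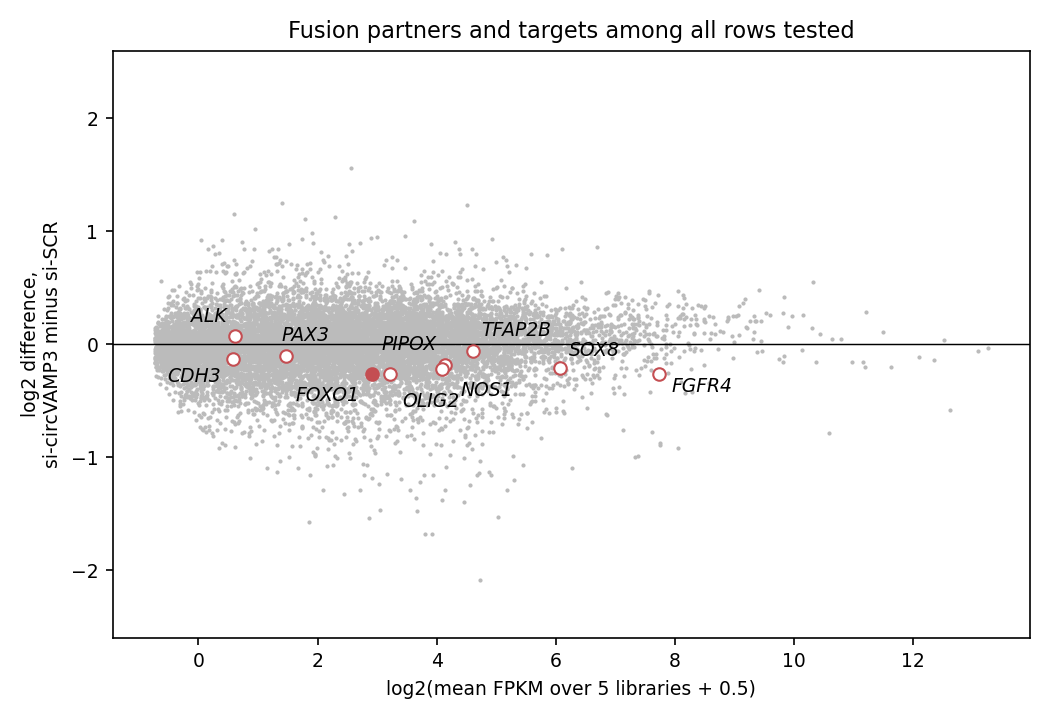
Log2 difference (vertical axis, si-circVAMP3 minus si-SCR) against log2 of the mean FPKM plus 0.5 (horizontal axis) for the 13681 rows tested (grey), with the 10 genes in red; filled points passed an adjusted p of 0.05. The 10 genes lie between -0.26 and 0.07, within the grey cloud, 9 of them below 0, and FGFR4 is the farthest to the right.

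Related genes were described from lists chosen with earlier results of these data known. Of the paralogs of the partners, PAX7, the alternative fusion partner, had no row, and none of the other 3 passed, beside 27.5% of all rows (median difference 0.09). FOXO3 was at a mean of 5.21 ± 0.142 FPKM under si-SCR and 4.55 ± 0.0515 under si-circVAMP3, and the log2 difference of -0.18 did not pass (adjusted p = 0.0677, and 0.039 with voom). FOXO4 and FOXO6 had differences of 0.13 and 0.09 that did not pass. With single libraries left out these ranged from 0.02 to 0.24 for FOXO4 and from 0.03 to 0.17 for FOXO6.

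Of 24 further genes of the fusion's expression signature, 21 had a row, of which 6 fell and 4 rose, beside 14.6% of all rows lower and 12.9% higher. Their median difference was -0.05. MYOG, the myogenin factor of muscle differentiation, fell from 175, 179 and 149 FPKM under si-SCR to 101 and 96.6 FPKM under si-circVAMP3 (log2 difference -0.76 ± 0.08, adjusted p = 0.00159). BMP5, a bone morphogenetic ligand, fell by 0.38 on the log2 scale (adjusted p = 0.00382), as did ABAT, the GABA transaminase (adjusted p = 0.0104). JARID2, a Polycomb partner, had a difference of -0.34 (adjusted p = 0.00775), ASS1, the argininosuccinate synthase, -0.33 (adjusted p = 0.0144) and RASSF4, a Hippo pathway regulator, -0.22 (adjusted p = 0.025). In the other direction, BCL2L1, which encodes the survival protein BCL-xL, rose from 15.8, 16.9 and 15.3 FPKM to 23.0 and 23.5 FPKM (0.53 ± 0.05, adjusted p = 0.00139). IGF1R, the receptor of insulin-like growth factors, rose by 0.22 (adjusted p = 0.0136), IL4R, an interleukin receptor, by 0.25 (adjusted p = 0.00845) and NELL1 by 0.54 (adjusted p = 0.0433). MYCN, an oncogene amplified or highly expressed in these tumours, at 19.9 ± 1.04 and 19.1 ± 0.346 FPKM, and MYOD1, at 102 ± 15.7 and 116 ± 14.8 FPKM, did not pass, nor did SKP2, MET and PITX3. The calls of MYOG, BMP5 and BCL2L1 were kept under every alternative run. The other 7 were lost with either si-circVAMP3 library left out, where calls were fewer among all rows as well. With single libraries left out, their differences kept direction, from -0.44 (ABAT) to -0.15 (RASSF4) and from 0.21 (IGF1R) to 0.69 (NELL1). The call of NELL1 was also lost without si-SCR replicate 1 (adjusted p = 0.0817) and with no intensity trend (0.0523). Without si-SCR replicate 2, those of RASSF4, ASS1 and NELL1 were lost (0.0514 to 0.119).

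Of 12 skeletal muscle markers with a row, 5 fell (MYOG, CHRNG, MYL4, ACTC1 and NCAM1) and none rose, beside 14.6% and 12.9% of all rows. The summed level of the list was 1226 to 1365 FPKM under si-SCR and 1060 to 1067 under si-circVAMP3. Cardiac actin, ACTC1, fell from 313, 355 and 313 FPKM to 169 and 175 FPKM (log2 difference -0.92 ± 0.06, adjusted p = 4.10e-04). CHRNG, a fetal acetylcholine receptor subunit, and MYL4, an embryonic myosin light chain, each had a difference of -0.59 (adjusted p = 7.92e-04 and 0.00123), and NCAM1, an adhesion molecule, one of -0.29 (adjusted p = 0.0107). The median of the list was -0.26. In 3 of the 12 the difference was above 0 and did not pass, with MYOD1 at 0.20, the myosin MYH8 at 0.18 and the troponin TNNT1 at 0.13 (adjusted p = 0.321, 0.169 and 0.0614). With single libraries left out MYOD1 ranged from 0.07 to 0.33 and MYH8 from 0.09 to 0.27. TNNT1 passed under median centring, quantile normalization and voom (lowest adjusted p 0.0434). Below 0, CDH15 (-0.35), DES (-0.11) and MYH3 (-0.23) did not pass in the main fit but did under some alternative. Their lowest adjusted p were 0.00588, 0.0313 and 0.034. CHRNA1 (-0.06) passed under none. Both si-circVAMP3 libraries lay below all controls in 7 of the 12 and above them in 2, beside 28.6% and 28% of all rows. Of the 5 calls, that of NCAM1 was lost with either si-circVAMP3 library left out, where calls were fewer among all rows as well. The other 4 were kept under every alternative. MYF5 and MYF6 had no row. Their part in the differences of the fusion targets was not tested, and in bulk RNA fewer cells of a state and less RNA per cell cannot be told apart.

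Of 14 cofactors and kinases that act on or with the fusion protein, all had a row and 2 passed, 1 in each direction, beside 27.5% of all rows in either (median difference 0.03). PLK1, a mitotic kinase known to phosphorylate and stabilise PAX3-FOXO1, fell from 50.3, 49.3 and 46.1 FPKM under si-SCR to 30.7 and 30.4 FPKM (log2 difference -0.66 ± 0.05, adjusted p = 4.69e-04), and this call was kept under every alternative. HDAC1, a histone deacetylase, rose from 48.9, 48.1 and 51.7 FPKM to 60.5 and 59.6 FPKM (0.28 ± 0.04, adjusted p = 0.00676). It did not pass with either si-circVAMP3 library left out, where calls were fewer among all rows as well. Its difference was then 0.26 (without replicate 1) and 0.29 (without replicate 2). The remodeller CHD4, on which fusion-driven transcription depends, had a difference of 0.09 that did not pass, and AURKA, HDAC2, HDAC3 and KDM3B did not pass either. With single libraries left out CHD4 ranged from 0.03 to 0.14.

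Of 20 targets of wild-type FOXO factors, 16 had a row, of which 4 fell and 3 rose, beside 14.6% and 12.9% of all rows, at a median difference of 0.01. TXNIP, an inhibitor of thioredoxin and glucose uptake, rose from 15.0, 13.8 and 14.4 FPKM to 36.0 and 32.8 FPKM (1.23 ± 0.06, adjusted p = 1.19e-04), the largest difference in the lists described here. CITED2, a transcriptional coregulator, and BCL2L11, the pro-apoptotic BIM, rose by 0.30 and 0.25 (adjusted p = 0.0154 and 0.0248). The factor KLF6 (-0.46, adjusted p = 0.00889), the cyclin-dependent kinase inhibitor CDKN1B (-0.24, 0.0429), the stress gene SESN1 (-0.24, 0.035) and catalase CAT (-0.23, 0.027) fell. The call of TXNIP was kept under every alternative. The other 6 were lost with either si-circVAMP3 library left out, where calls were fewer among all rows as well. Between 1 and 4 of them were also lost with a control library left out. Without si-SCR replicate 1 these were CDKN1B, BCL2L11 and SESN1 (adjusted p 0.0517 to 0.0602). Without replicate 2 they and CAT were lost (0.0814 to 0.0939), and without replicate 3 SESN1 was (0.0512). CDKN1B was lost under median centring (0.0519) and with no intensity trend (0.0709) as well. GADD45A, SESN3, CCNG2 and BNIP3 did not pass.

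**Figure D4:**
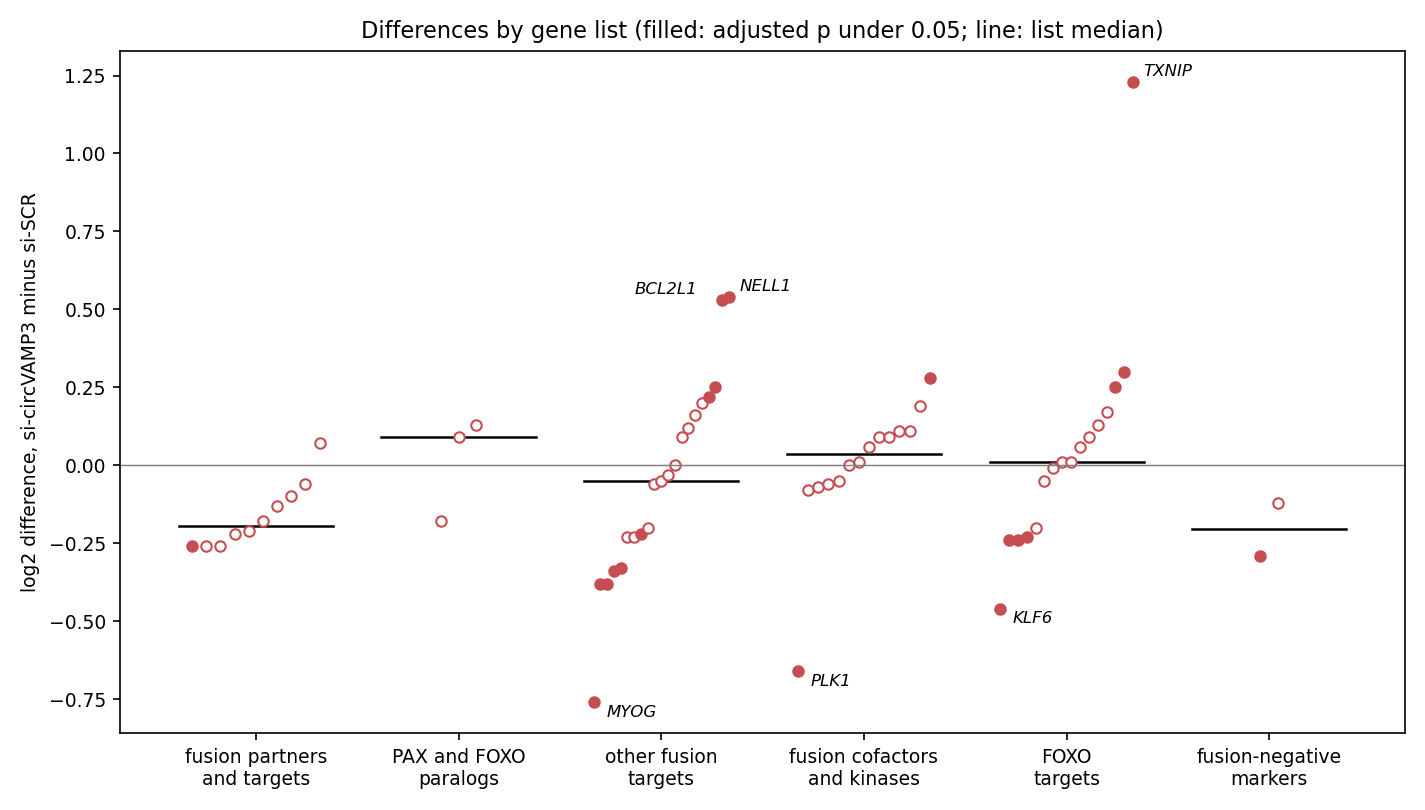
Log2 difference (vertical axis, si-circVAMP3 minus si-SCR) of each gene with a row in 6 gene lists (horizontal axis); filled points passed an adjusted p of 0.05 over all rows and lines give the list medians. Among the fusion partners and targets only FOXO1 is filled, while the further fusion targets run from MYOG at -0.76 to NELL1 at 0.54.

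Of 3 genes that mark fusion-negative rhabdomyosarcoma, EGFR had no row, and 1 of the other 2 fell, beside 14.6% of all rows. HMGA2, a chromatin architectural protein, fell from 14.4, 14.6 and 16.4 FPKM to 11.9 and 12.6 FPKM (log2 difference -0.29 ± 0.07, adjusted p = 0.0229). This call was lost without si-SCR replicate 2 (adjusted p = 0.0557) and with either si-circVAMP3 library left out. In each of these settings calls were fewer among all rows as well. FBN2, a fibrillin, had a difference of -0.12 that did not pass (adjusted p = 0.263) and that ranged from -0.18 to -0.05 with single libraries left out.

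The rows most like the partners over the 5 libraries were found by the root mean square distance of log2(FPKM + 0.5) from its si-SCR mean. For PAX3 these were BORCS8, INPP5B and DYRK3, with differences of -0.10, -0.09 and -0.08. For FOXO1 they were UBE2E2 (11.2, 12.1 and 12.5 FPKM under si-SCR, 9.51 and 10.2 under si-circVAMP3), USP31 and GDE1, each with a difference of -0.26. The group difference is part of the pattern by which these rows were chosen, so it is given as a description with no test. The distances were 0.009 to 0.016 on the log2 scale.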

How the data were processed

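Poly-A+ RNA of 5 RH4 libraries was sequenced. Per the study's methods and the submitters' processing notes, the authors trimmed reads with Trimmomatic, aligned them to GRCh38 with STAR 2.5.2b, counted them per gene by strand with HTSeq, removed genes of low CPM and computed the deposited FPKM values with edgeR. The study tested counts, and the values tested here are FPKM.

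Whole read counts were recovered from FPKM ratios for 100.0% of rows (relative tolerance 1e-12), giving 18599261 to 28776712 reads per library. Sequencing was paired-end, and the numbers called reads are the HTSeq counts behind the FPKM. The GENCODE exon length matched the one behind the FPKM in 68.8% of rows. In the others a common divisor of the counts may not have been restored. Counting SEs cover counting error only.

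Rows with a mean FPKM of at least 0.1 (13681 of 13822) were fitted with limma 3.58.1 (R 4.3.3, intensity trend) on log2(FPKM + 0.5), with the siRNA as the only term and Benjamini-Hochberg adjustment over all rows. The script was tested on simulated data. This scale understates changes of low genes. Alternatives were the pseudocount, filter, scaling, trend and prior, a replicate block, leaving out each library and, chosen after seeing the data, voom weights on recovered reads. Gene coordinates are from GENCODE 44, and 13783 IDs matched a symbol. A gene is said to have no row where none of these IDs bore its symbol, so a row under an unmatched ID would be missed.

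The members and lists were chosen with earlier results of these data known. Named were the 10 members, VAMP3, in each related list every gene that passed and up to 4 others with the highest mean, and the 3 rows nearest to each partner. MYCN, CHD4 and the cell type markers were named after their values were seen. Reads shared between overlapping or near-identical genes were not examined.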

Additional observations from a re-analysis of the deposited data

How the results depend on the processing

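The number of rows passing the test was 1769 higher and 1994 lower, and ranged from 467 to 1963 higher and from 747 to 2056 lower when single libraries were left out. With a si-circVAMP3 library left out, the lone library is assumed to vary like the others. The number of the 10 genes passing was 1 (FOXO1) and ranged from 0 to 4 over the libraries left out. With the replicate number as a block it was 2 (FGFR4 and SOX8, where 11.1% of rows passed downwards), and FOXO1 had an adjusted p of 0.0554; the labels share only numbers, deviations of same-numbered libraries correlated at -0.132 and -0.027 across genes, and the block left 1271 rows higher and 1516 lower. In the related lists the block took the calls of RASSF4 (adjusted p = 0.0734), of BCL2L11, SESN1 and CAT (0.0722 to 0.091) and of PDGFRB (0.107). None of the 10 passed both cutoffs of the study under any alternative, and none of the 10 differences changed sign under any (a mean FPKM of at least 1 left CDH3 out). The log2 difference of the FOXO1 to PAX3 ratio ranged from -0.22 to -0.10 with single libraries left out. Over 70 genes (those named and every cell type marker tested), 926 of the alternative values kept direction and call, 79 lost the call, 17 gained it and 20 changed sign. Those that changed sign never passed: SKP2 was -0.03 under quantile normalization and -0.04 to 0.06 over libraries left out, PITX3 -0.13 with the replicate block and -0.13 to 0.32, KDM3B -0.00 with voom and -0.06 to 0.06, GADD45A 0.01 under median centring and -0.11 to 0.08, and COL1A1 0.01 under median centring, 0.02 under quantile normalization, 0.03 with voom and -0.07 to 0.04. The cause of these shifts was not tested. Read depth limits CDH3 (104 to 167 reads per library), ALK (144 to 235) and PAX3 (318 to 488).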
